A study of Homo sapiens with 7 samples.

Results

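The genes of MHC class I antigen presentation were followed through 3 lists of H3K27ac HiChIP loops, from Ishikawa endometrial, T-47D breast and LNCaP prostate cancer cells. The genes were the heavy chains HLA-B, HLA-C, HLA-E and HLA-F, the light chain B2M, the peptide transporter subunits TAP1 and TAP2, tapasin (TAPBP) and the transactivator NLRC5. These are 9 of the 20163 protein-coding genes examined, chosen by name with earlier results of these data known, so they are not an independent set. A loop is a pair of different anchors on the same chromosome joined by at least 3 read pairs, and it was assigned to a gene when an anchor overlapped a 500 bp window centred on any annotated start site of that gene. By this rule 122 of 354783 loops lay at a promoter of these genes, 29 of 163530 in Ishikawa, 42 of 42027 in T-47D and 51 of 149226 in LNCaP.

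HiChIP ligates DNA ends that lie close together in the nucleus and enriches them with an antibody, here against histone H3 acetylated at lysine 27, a mark of active promoters and enhancers. A read pair joining 2 anchors is therefore a contact in which acetylated chromatin took part. Ishikawa is an established line from an endometrial adenocarcinoma, T-47D a luminal breast carcinoma line and LNCaP a line from a lymph node metastasis of prostate cancer. Ishikawa had 4 libraries, 2 from cells treated with DMSO and 2 from cells given 10 nM 17β-estradiol for 1 h, T-47D had 1 library and LNCaP had 2, with no treatment given in the labels of either. Each line had 1 deposited list, which joined its libraries, so the effect of estradiol was not examined here. No spread between replicates was available, and the 4 unlabelled parts of the Ishikawa list were not tied to its libraries. All intervals below are 95% intervals for counting error only.

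Class I molecules display peptides from inside the cell to CD8 T cells. The proteasome cuts the peptides, TAP1 and TAP2 carry them into the endoplasmic reticulum, and tapasin holds the empty heavy chain with B2M beside the transporter until a peptide is bound. Interferon raises transcription of most of these genes through interferon-stimulated elements, and NLRC5 acts with the RFX factors at the SXY module of class I promoters. Tumour cells often lower this pathway and so evade T cells.

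In each line the lists held loops at the promoters of that line's marker genes. In Ishikawa, PAX8 had 162 read pairs and SOX17 had 27, and neither had a loop in the other lists. GATA3 had 1063 read pairs in T-47D, against 7 in Ishikawa and none in LNCaP, and TRPS1 had 2557, against 3 and 4. KLK3 had 2936 in LNCaP, 6 in Ishikawa and none in T-47D. Loops held 1805322 read pairs in LNCaP, 1040329 in Ishikawa and 351260 in T-47D, so counts were compared as read pairs per 100000 in the same list. The share of anchors that overlapped the promoter of a protein-coding gene was 49.1% in T-47D, 29.4% in LNCaP and 16.6% in Ishikawa. Ishikawa also differed from both other lines in restriction enzyme (DpnII against MboI), sonication, read length and sequencing depth. Its list joined DMSO and estradiol libraries and held 4 parts, against 1 in each other list. Wherever Ishikawa is compared, the line and these differences cannot be told apart. Of the white blood cell markers PTPRC, CIITA, CD74 and HLA-DRA, 4 of 4 had a loop in Ishikawa, with 3 to 63 read pairs, 2 of 4 in T-47D, where PTPRC and HLA-DRA were at 0, and 1 of 4 in LNCaP, where CIITA alone had a loop. The part of other cells in the results below was not tested.

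The promoters on which the results turned are shown as the 250 bases before the RefSeq start, read 5′ to 3′ on the strand of the gene. HLA-B and HLA-C are shown because their promoters were joined to each other in T-47D, TAP1 and TAP2 because theirs were joined in T-47D and LNCaP, TAPBP because it had the most read pairs in any list and HLA-F because it had none. Capitals mark matches on either strand to the interferon-stimulated core GAAANNGAA, the class I κB core GGGATTCCC, the core TGACGC of the X2 box in the SXY module, and the inverted CCAAT box ATTGG. The sequences came from RefSeq on GRCh38.p14, and each was found exactly once in GRCh37, the build of the loop lists, at the positions given.
HLA-B, chr6:31324957-31325206, minus strand: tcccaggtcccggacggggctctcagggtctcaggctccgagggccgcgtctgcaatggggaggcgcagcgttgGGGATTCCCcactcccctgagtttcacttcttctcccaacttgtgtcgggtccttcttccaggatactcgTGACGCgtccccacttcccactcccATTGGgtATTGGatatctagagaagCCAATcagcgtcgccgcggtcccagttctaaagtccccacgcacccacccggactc
HLA-C, chr6:31239870-31240119, minus strand: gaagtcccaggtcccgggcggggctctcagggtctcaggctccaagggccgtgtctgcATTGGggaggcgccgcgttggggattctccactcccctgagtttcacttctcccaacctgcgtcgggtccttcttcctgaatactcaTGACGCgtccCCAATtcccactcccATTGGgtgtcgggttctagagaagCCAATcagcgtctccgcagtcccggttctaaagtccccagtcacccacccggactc
TAP1, chr6:32821482-32821731, minus strand: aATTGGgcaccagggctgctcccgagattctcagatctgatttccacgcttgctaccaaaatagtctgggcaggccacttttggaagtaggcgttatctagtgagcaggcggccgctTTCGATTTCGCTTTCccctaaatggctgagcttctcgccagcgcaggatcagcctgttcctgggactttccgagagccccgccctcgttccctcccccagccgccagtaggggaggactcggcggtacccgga
TAP2, chr6:32806517-32806766, minus strand: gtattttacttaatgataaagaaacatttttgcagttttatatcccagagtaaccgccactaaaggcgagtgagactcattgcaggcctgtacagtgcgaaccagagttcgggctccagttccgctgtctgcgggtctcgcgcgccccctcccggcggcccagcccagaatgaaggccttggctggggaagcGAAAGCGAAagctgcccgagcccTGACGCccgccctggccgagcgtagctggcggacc
TAPBP, chr6:33281856-33282105, minus strand: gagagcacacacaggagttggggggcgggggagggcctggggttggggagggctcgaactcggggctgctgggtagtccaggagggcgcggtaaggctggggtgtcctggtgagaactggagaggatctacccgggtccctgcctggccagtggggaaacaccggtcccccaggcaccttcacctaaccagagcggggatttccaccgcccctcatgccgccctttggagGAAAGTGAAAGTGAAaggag
HLA-F, chr6:29690961-29691210, plus strand: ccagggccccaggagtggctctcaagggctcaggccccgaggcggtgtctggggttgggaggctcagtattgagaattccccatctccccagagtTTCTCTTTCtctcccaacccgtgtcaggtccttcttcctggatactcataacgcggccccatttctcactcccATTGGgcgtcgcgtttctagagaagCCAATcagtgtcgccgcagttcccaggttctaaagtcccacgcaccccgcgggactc

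RefSeq promoters, each of 300 bases including 50 after the start, were matched for 7 of the 9 genes, all but HLA-E and NLRC5. The interferon-stimulated core was present in 5 of the 7, HLA-F, B2M, TAP1, TAP2 and TAPBP, against 8.11% of 34796 RefSeq promoters. TAPBP, TAP1 and B2M each held a pair of matches that share bases. The X2 core was present in HLA-B, HLA-C and TAP2, against 9.1% of all promoters, and the κB core in HLA-B alone of the 7, against 0.365%. The inverted CCAAT box was present in HLA-B, HLA-C, HLA-F, B2M and TAP1, against 34.6%. These are letter matches, not measured binding sites, and a promoter without a match may still hold such an element in other letters. A gene counted if any of its RefSeq promoters matched, while the shares of all promoters were counted per promoter. TAP1 had another RefSeq promoter, with its start at 32820538, that held no match in the 250 bases before the start. HLA-F held the interferon core and the CCAAT box but had no loop in any list, and both TAP1, with loops in T-47D and LNCaP, and TAPBP, with none in T-47D, held the interferon core.

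A promoter loop was listed for 7 of the 9 genes in LNCaP, 6 in T-47D and 2 in Ishikawa. Among all protein-coding genes, 58.1% had a promoter loop in LNCaP, 49.2% in T-47D and 57.3% in Ishikawa. Although 33.4% of all genes had a loop in every list, 0 of the 9 did. No loop in any list was found for 24.1% of all genes and for 1 of the 9, HLA-F. The 6 genes with a loop in T-47D were HLA-B, HLA-C, HLA-E, B2M, TAP1 and TAP2, and 0 of these 6 had one in Ishikawa, whereas 73.7% of all genes with a T-47D loop also had one in Ishikawa. In LNCaP, 5 of these 6 had a loop, against 90% of all genes with a T-47D loop. Of the 7 genes with a loop in LNCaP, 2 also had one in Ishikawa and 5 in T-47D, against 71.6% and 76.2% of all genes with a loop in LNCaP.

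**Figure D1:**
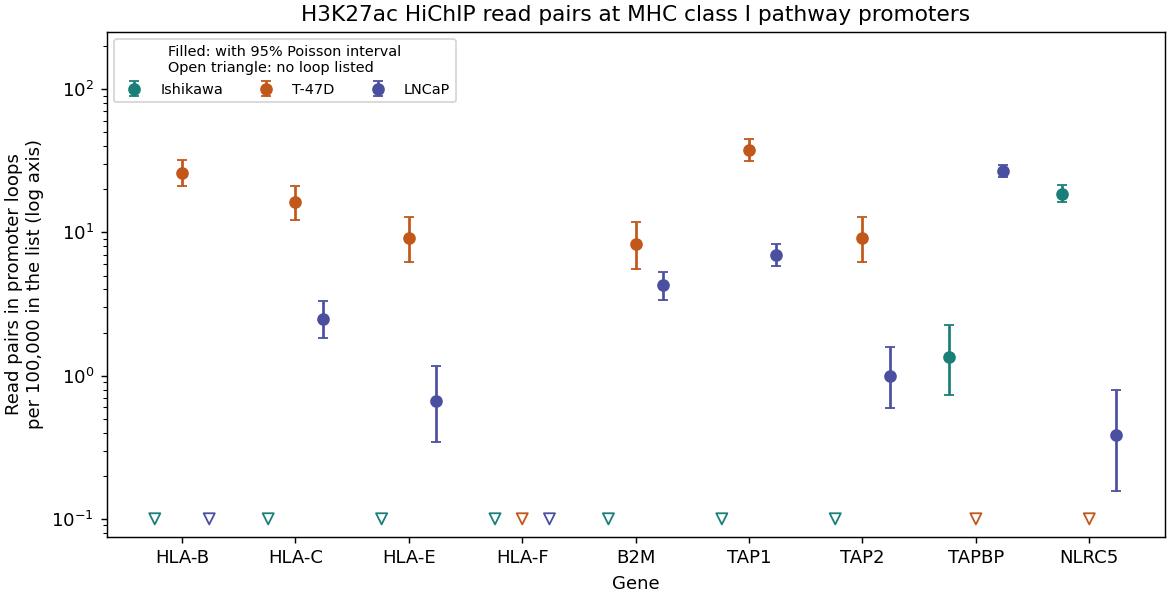
Read pairs in promoter loops per 100,000 read pairs in the loops of the same list (log axis) for the 9 genes in Ishikawa, T-47D and LNCaP. Points carry exact 95% Poisson intervals and open triangles, set at the bottom of the axis, mark a gene with no loop listed. T-47D was the highest list for HLA-B, HLA-C, HLA-E, B2M, TAP1 and TAP2, LNCaP for TAPBP and Ishikawa for NLRC5.

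Among the heavy chains, the classical genes HLA-B and HLA-C present peptides to T cells. HLA-B (chromosome 6, 31321649 to 31334844, minus strand) had 92 read pairs in T-47D, in 12 loops, and was at 0 in Ishikawa and LNCaP. This was 26.2 read pairs per 100000 in T-47D (21.1 to 32.1), and 94% of protein-coding genes had fewer read pairs in that list. HLA-C (31236526 to 31239907, minus strand) was at 0 in Ishikawa and had 57 read pairs in T-47D and 45 in LNCaP. Per 100000 read pairs, HLA-C was 16.2 in T-47D (12.3 to 21) and 2.49 in LNCaP (1.82 to 3.34), and the intervals did not overlap.

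In T-47D the strongest loop of both genes joined them to each other. It had 27 read pairs and ran over 85.9 kb from chr6:31238171-31241824, at the HLA-C promoter, to chr6:31323860-31327993, over the RefSeq start of HLA-B. The next HLA-B loop, with 13 read pairs, ended at an intergenic anchor 20.5 kb away that was also joined to HLA-C, with 7 read pairs. Further anchors shared by HLA-B and HLA-C in T-47D lay at MICA, which encodes a stress ligand of natural killer cells and had 5 read pairs with each gene, and at CCHCR1 and TCF19, with 6 read pairs to HLA-B and 3 to HLA-C. In LNCaP, HLA-C was joined most strongly to an intergenic anchor 87.6 kb away (12 read pairs) and to one 75.8 kb away over start sites of the non-coding gene HCG27 (10 read pairs). HLA-C kept 3 of its 7 T-47D loops in LNCaP, those to MICA, to CCHCR1 and TCF19, and to the HCG27 anchor. The anchor over HLA-B in T-47D had no counterpart in LNCaP, where the nearest anchor lay 31.3 kb from the HLA-B start windows.

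**Figure D2:**
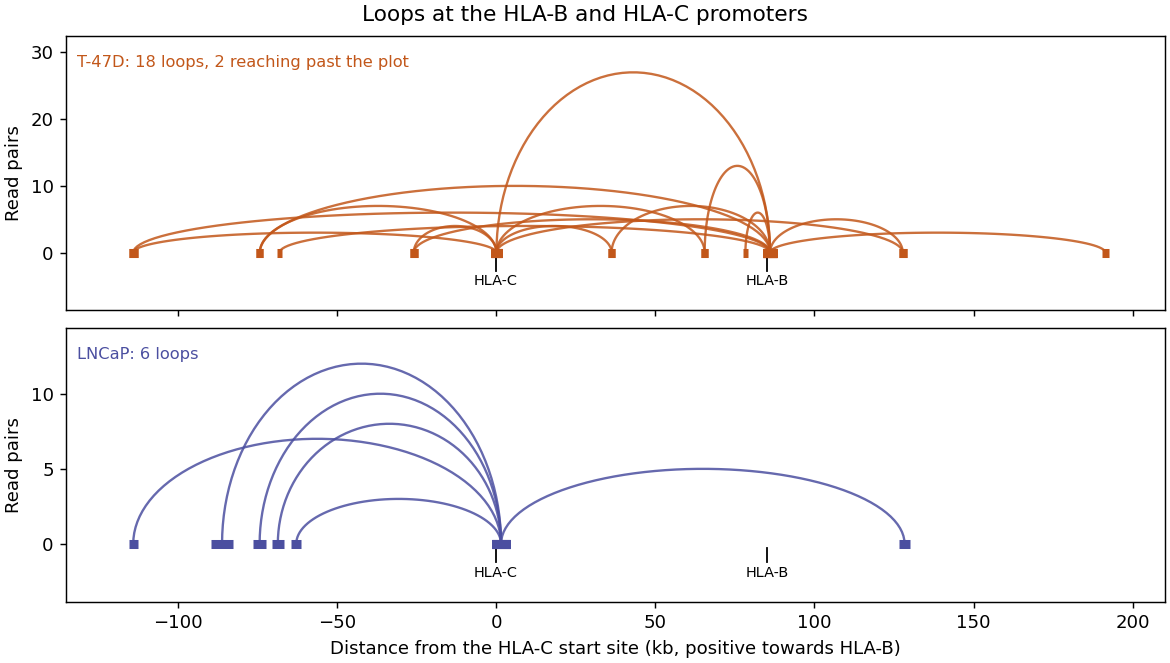
Loops at the HLA-B and HLA-C promoters in T-47D (18 loops, the shared one drawn once) and LNCaP (6 loops), with the distance from the HLA-C start site in kb on the x axis and the read pairs of each loop as the height of its arc. Thick bars are anchors, and the tallest T-47D arc, with 27 read pairs, joins HLA-C and HLA-B. The T-47D loops of HLA-B to DDR1 and to chr6:30949271-30951225 reach past the plot and are left out.

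Of the non-classical heavy chains, HLA-E, which is recognised by receptors of natural killer cells (chromosome 6, 30457286 to 30461971, plus strand), was at 0 in Ishikawa and had 32 read pairs in 6 loops in T-47D and 12 in 2 loops in LNCaP. This was 9.11 per 100000 in T-47D (6.23 to 12.9) and 0.665 in LNCaP (0.343 to 1.16). Its strongest T-47D loops, with 7 read pairs each, went to an anchor at the non-coding gene LINC02569 and to the promoter of ABCF1. The ABCF1 loop was also in the LNCaP list, with 4 read pairs, where the strongest loop went to GNL1 and PRR3 with 8. HLA-F (29690552 to 29706305, plus strand) was at 0 in every list. From its start windows the nearest anchor was 5.18 kb away for Ishikawa, 21.4 kb for LNCaP and 334 kb for T-47D, and a count under the floor of 3 read pairs per loop would not be listed.

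B2M, the invariant light chain of every class I molecule, lies on chromosome 15 (45003556 to 45011049, plus strand), outside the MHC. It was at 0 in Ishikawa and had 29 read pairs in 4 loops in T-47D and 77 in 11 loops in LNCaP. Per 100000 this was 8.26 in T-47D (5.53 to 11.9) and 4.27 in LNCaP (3.37 to 5.33), the smallest difference between these lists among the 5 genes with loops in both. The promoter anchor also held a start site of PATL2, so the loops cannot be given to B2M alone. Its strongest T-47D loop, with 10 read pairs, went to an anchor 28.1 kb away within PATL2, which LNCaP joined with 8 read pairs. The TRIM69 promoter had 9 read pairs with B2M in T-47D and 11 in LNCaP, and the SPG11 promoter had 7 and 10. The strongest LNCaP loop, with 15 read pairs over 8.07 kb, ended at the 3′ end of the B2M gene itself and had no match in T-47D. In all, 3 of the 4 T-47D loops of B2M were found in LNCaP.

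The transporter genes TAP1 (chromosome 6, 32812986 to 32821593, minus strand) and TAP2 (32789610 to 32806516, minus strand) lie beside each other in the class II region, together with the immunoproteasome genes PSMB8 and PSMB9. TAP1 was at 0 in Ishikawa and had 133 read pairs in 11 loops in T-47D and 126 in 12 loops in LNCaP. This was 37.9 per 100000 in T-47D (31.7 to 44.9), the highest value of the 9 genes in any list, and 6.98 in LNCaP (5.81 to 8.31). In T-47D 96.6% of protein-coding genes had fewer read pairs, and in LNCaP 81.1%. TAP2 was at 0 in Ishikawa and had 32 read pairs in T-47D and 18 in LNCaP, or 9.11 (6.23 to 12.9) and 0.997 (0.591 to 1.58) per 100000. The TAP1 anchor also held a start site of PSMB9 and the TAP2 anchor one of the gene ENSG00000250264, so neither set of loops belongs to 1 gene alone.

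A loop joined the TAP1 and TAP2 promoters in both lists, with 13 read pairs over 16.3 kb in T-47D and 7 over 15.1 kb in LNCaP. It was the strongest loop of TAP2 in T-47D. The strongest TAP1 loop in T-47D had 38 read pairs and ended 7.64 kb away at an intergenic anchor, chr6:32828095-32830300, and the next had 33 read pairs and ended at the anchor over the starts of PSMB8 and PSMB9. In LNCaP neither was listed, and the strongest TAP1 loop, with 55 read pairs over 122 kb, ended at an anchor over BRD2, which encodes a reader of acetylated histones, and the class II gene HLA-DMA. The loop to BRD2 and HLA-DMA was also in T-47D, with 18 read pairs to TAP1, and was the strongest TAP2 loop in LNCaP, with 8. Of the TAP1 loops of T-47D, 5 of 11 were found in LNCaP, and of the TAP2 loops 2 of 4.

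**Figure D3:**
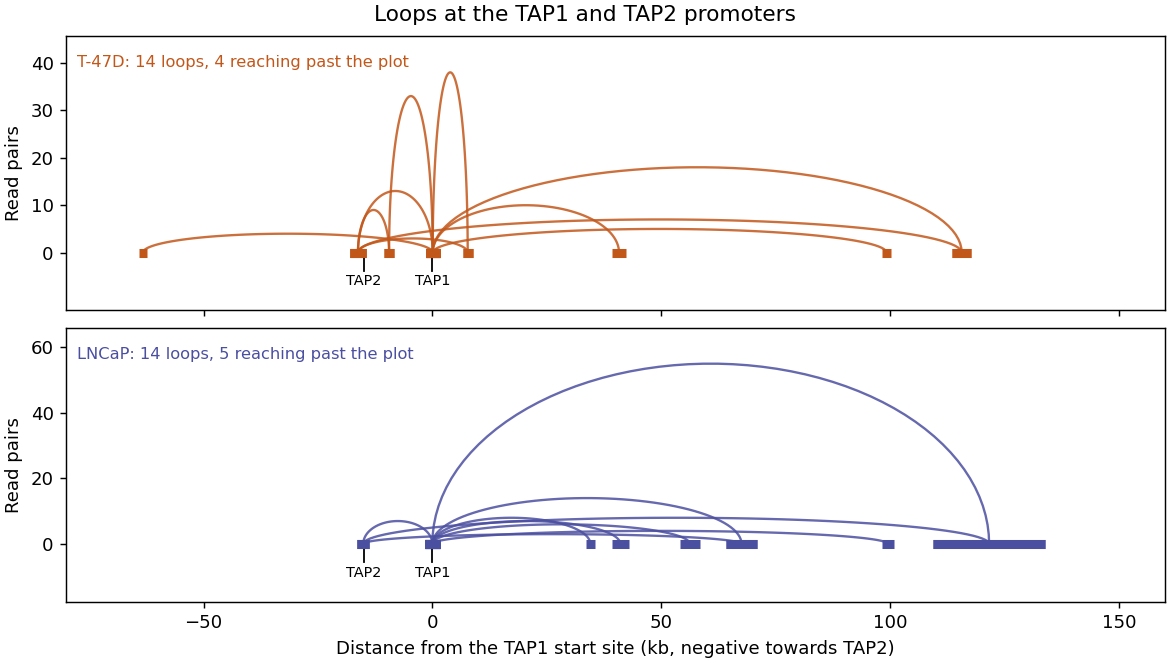
Loops at the TAP1 and TAP2 promoters in T-47D and LNCaP (14 loops in each list), with the distance from the TAP1 start site in kb on the x axis and read pairs as arc height. Thick bars are anchors and loops reaching past the plot, 4 in T-47D and 5 in LNCaP, are left out. The T-47D arcs with 38 and 33 read pairs span 7.64 and 9.53 kb, while the tallest LNCaP arc, with 55 read pairs, spans 122 kb.

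TAPBP (chromosome 6, 33267471 to 33282061, minus strand), which encodes the chaperone that keeps the class I molecule at the transporter, was highest in LNCaP. It had 14 read pairs in Ishikawa, none in T-47D and 485 in LNCaP, the largest count of the 9 genes. This was 1.35 per 100000 in Ishikawa (0.736 to 2.26) and 26.9 in LNCaP (24.5 to 29.4), where 96.4% of protein-coding genes had fewer read pairs. The LNCaP loops ran to 16 anchors, of which the promoters of DAXX and ZBTB22 had 167 read pairs over 7.23 kb, RGL2 135 over 14.2 kb, and B3GALT4, RPS18 and VPS52 31 over 39.3 kb. The 4 Ishikawa loops had 3 or 4 read pairs each, were each found in 1 of the 4 parts of that list, and among their ends were KIFC1, RXRB with SLC39A7, and PFDN6 with RGL2 and WDR46. In T-47D the nearest anchor lay 3.98 kb from the TAPBP start windows. A T-47D loop of TAP1, with 3 read pairs, ended at an anchor over RGL2 that also touched the 3′ end of TAPBP.

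NLRC5, the transactivator of class I genes, lies on chromosome 16 (57023397 to 57117443, plus strand). It had 195 read pairs in 25 loops in Ishikawa, none in T-47D and 7 in 2 loops in LNCaP, or 18.7 (16.2 to 21.6) and 0.388 (0.156 to 0.799) per 100000. In Ishikawa 98% of protein-coding genes had fewer read pairs. The loops of the lists lay at different start sites. The Ishikawa anchors covered start sites between 57036620 and 57118220, inside the gene, and none covered the outer start at 57023397, whereas both LNCaP loops, to HERPUD1 and to PSME3IP1 with RSPRY1, started there. The strongest Ishikawa loop, with 36 read pairs over 19.3 kb, joined an anchor in the 3′ part of NLRC5 to the promoter of the neighbouring gene CPNE2, and was found in 4 of the 4 parts of the list. Of the 25 loops, 11 joined start sites of NLRC5 with each other. The read pairs at NLRC5 in the parts of the Ishikawa list were 33, 11, 65 and 86, or 12.3, 12.2, 27.2 and 19.5 per 100000, so each part held some. The parts ranged beyond the interval of the summed value, 16.2 to 21.6, which covers counting error only.

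**Figure D4:**
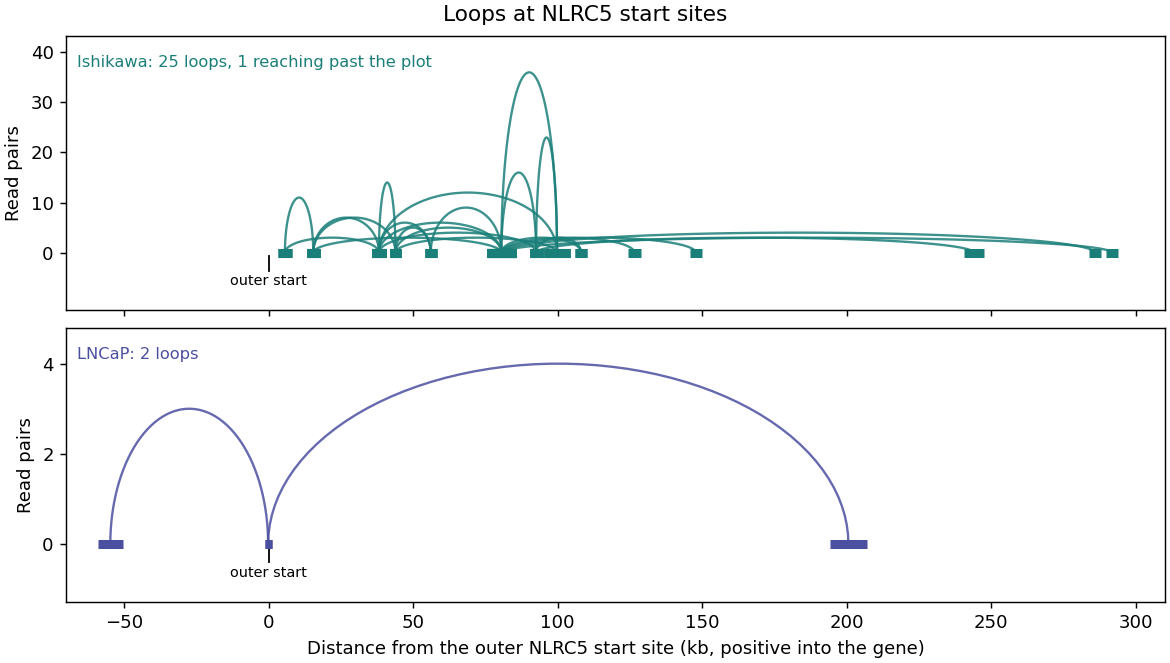
Loops at NLRC5 start sites in Ishikawa (25 loops, 1 reaching past the plot) and LNCaP (2 loops), with the distance from the outer NLRC5 start site in kb on the x axis and read pairs as arc height. Ishikawa anchors (thick bars) lie inside and beyond the gene and none covers the outer start, where both LNCaP loops begin.

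With 1 start site per gene, the outer 5′ end, a loop was left for 1 of the 9 genes in Ishikawa, TAPBP, for 5 in T-47D and for 7 in LNCaP. NLRC5 was lost in Ishikawa, and HLA-B in T-47D because its annotated outer end lies at 31334844, beyond the anchor. Over all genes, 89.5% of those with a loop in LNCaP, 87.9% in T-47D and 75.3% in Ishikawa kept one.

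Between lists, a gene was called when its read pairs per 100000 differed at least 2-fold, with counts under 3 set to 3. The higher list also had to hold a loop of the gene. Where a gene was at 0, its fold (given as at least) was taken against 3 read pairs over its promoter in that list. Loops below the listed minimum were not seen and could together exceed 3 read pairs, so this fold is not a strict bound. In Ishikawa the minimum of 3 applied within each of the 4 parts, before they were summed. A loop spread thinly over the parts was therefore unseen there, though the same total would be listed in T-47D or LNCaP. T-47D was at least 2-fold over LNCaP for 5 of the 8 genes with a loop in either list, against 36.7% of all genes. HLA-B was at least 158-fold higher, with an interval of 52.3 to 778 when 3 read pairs were set for LNCaP. HLA-E was 13.7-fold higher (6.87 to 29.2), TAP2 9.14-fold (4.98 to 17.3), HLA-C 6.51-fold (4.33 to 9.85) and TAP1 5.43-fold (4.22 to 6.98). B2M, at 1.94-fold (1.22 to 3), was not called, but lay at 2 to 2.63-fold under 4 of the alternatives: a minimum of 5 read pairs, thinning every list to the read pairs of T-47D, and spans of 20 kb to 1 Mb or 5 kb to 2 Mb. TAP1 was 2.3-fold (1.59 to 3.26) at spans of 20 kb to 1 Mb and 10.6-fold at a minimum of 10 read pairs. Bounds against 0 grow with the depth of the other list, and in the thinned lists HLA-B was at least 22.2-fold higher. The other direction was called for 1 of the 8, TAPBP, at least 31.5-fold higher in LNCaP, against 22.7% of all genes. TAPBP was at least 10.7-fold higher at spans of 20 kb to 1 Mb and at least 37.7-fold higher in the thinned lists. Over the 8933 genes with a loop in both lists the median ratio of T-47D to LNCaP was 1.56, and over the 5 of these genes it was 6.51.

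Ishikawa was at least 2-fold over LNCaP for 1 of 7 genes, NLRC5 (48.3-fold, 23 to 122), against 31% of all genes. LNCaP was at least 2-fold over Ishikawa for the other 6, HLA-C, HLA-E, B2M, TAP1, TAP2 and TAPBP, against 48.1%, with TAPBP in Ishikawa at 0.0501 of its LNCaP value (0.0272 to 0.0849) and TAP1 at least 24.2-fold higher in LNCaP. TAPBP was 5.59-fold higher in LNCaP at spans of 20 kb to 1 Mb and at least 71.9-fold higher at a minimum of 5 read pairs. The calls of HLA-E (at least 2.31-fold) and TAP2 (at least 3.46-fold) were lost in part of the alternatives, with bounds of 1.22 to 1.78 for HLA-E in 6 of them and of 1.56 and 1.99 for TAP2 in 2. In the thinned lists and at a minimum of 10 read pairs both genes were at or under 3 read pairs in both Ishikawa and LNCaP. With 3 read pairs set for Ishikawa, HLA-E was at 0.434 of its LNCaP value (0.0786 to 1.61), an interval that included 1. Ishikawa was at least 2-fold over T-47D for 1 of 8 genes, NLRC5 (at least 21.9-fold), against 23%, and T-47D at least 2-fold over Ishikawa for 6 of 8, against 50.8%. The 6 were HLA-B, HLA-C, HLA-E, B2M, TAP1 and TAP2, from at least 28.6-fold for B2M to at least 131-fold for TAP1, and in the thinned lists at least 6.21-fold for B2M and at least 28.4-fold for TAP1. These comparisons share their lists and are not independent of each other.

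Summed over the 9 genes, each loop once, the lists held 763 read pairs in LNCaP, 335 in T-47D and 209 in Ishikawa. This was 42.3 (39.3 to 45.4), 95.4 (85.4 to 106) and 20.1 (17.5 to 23) per 100000. T-47D was 2.26-fold over LNCaP (1.98 to 2.57) and 4.75-fold over Ishikawa (3.98 to 5.67), and Ishikawa was at 0.475 of LNCaP (0.406 to 0.555). Over all genes with a loop in both lists compared, the median ratio was 0.45 for Ishikawa over LNCaP and 0.296 for Ishikawa over T-47D. NLRC5 made up 195 of the 209 read pairs in Ishikawa and TAPBP 485 of the 763 in LNCaP, so the sums of these lists rested mostly on 1 gene each.

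The stretch of chromosome 6 from HLA-F to TAPBP (29690552 to 33282061, 3.59 Mb, 150 protein-coding genes) was not empty in Ishikawa. It held 289 loops there, against 394 in T-47D and 534 in LNCaP, and 61.3%, 59.3% and 62.7% of its genes had a promoter loop. Its read pairs per 100000 were 928 in T-47D, 404 in LNCaP and 181 in Ishikawa, the same order as the sums at the 9 genes. Loops per Mb were 80.5 in the stretch and 46.2 on the rest of chromosome 6 in Ishikawa, 110 and 10.4 in T-47D, and 149 and 52.4 in LNCaP. In Ishikawa anchors lay 2.56 kb from the start windows of HLA-E, 7.75 kb from those of HLA-B and 11.9 kb from those of B2M, and 20.9 kb or more from those of HLA-C, TAP1 and TAP2.

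A loop was counted as found in another list if both of its anchors overlapped those of a loop there. LNCaP held 13 of the 42 loops of T-47D (31%, 19.1 to 46), against 45.9% of all promoter loops of T-47D. T-47D held 13 of the 51 loops of LNCaP (25.5%, 15.5 to 38.9), against 15.6% of all promoter loops of LNCaP. The 12 loops of HLA-B in T-47D and the 16 of TAPBP in LNCaP are in these totals, and neither gene had a promoter anchor in the other list. Of the 29 Ishikawa loops, LNCaP held 4, against 10.9% of all promoter loops of Ishikawa. Loops of Ishikawa had a median span of 36.6 kb, against 43.6 kb over all its promoter loops, those of T-47D 83.9 against 90.9 kb and those of LNCaP 87.4 against 122 kb. Both anchors lay at a promoter in 69% of the loops in Ishikawa (50.8 to 82.7), 52.4% in T-47D (37.7 to 66.6) and 60.8% in LNCaP (47.1 to 73), against 20.4%, 48% and 33.6% of all promoter loops. In Ishikawa the loops between start sites of NLRC5 itself are part of this share. The intervals of shares treat loops as independent, but 25 of the 29 Ishikawa loops were at NLRC5 and 16 of the 51 LNCaP loops at TAPBP. They may therefore be too narrow and do not describe the genes as a set.

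The other genes of the pathway were counted in 4 lists, to be read beside the 57.3%, 49.2% and 58.1% of all genes with a loop in Ishikawa, T-47D and LNCaP. All values here are levels per 100000 read pairs in the list unless given as read pairs. Of the 5 genes of the immunoproteasome and its activator, which cut peptides for class I, 5 had a loop in T-47D, 4 in LNCaP and 1 in Ishikawa. The catalytic subunit PSMB8 had 67 read pairs in T-47D and none in the other lists. Of the 67, 33 were in its loop to the TAP1 anchor and 9 in that to the TAP2 anchor, so they were also counted at those genes. In LNCaP the loops of PSMB9 were those of the TAP1 anchor. PSMB10, another catalytic subunit, had 25.9 read pairs per 100000 in T-47D, 11.4 in LNCaP and 0.288 in Ishikawa. The activator genes PSME1 and PSME2 were at 0 in Ishikawa and had 7.69 and 15.7 per 100000 in T-47D. In LNCaP they shared 1 anchor with 24.2 per 100000, which also held start sites of EMC9 and RNF31. The nearest Ishikawa anchor lay only 0.321 kb from the start windows of PSME2 and 2.28 kb from those of PSME1. A wider window was not run for the pathway lists, so the 0 of PSME2 depends on the 500 bp window.

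Of the 6 genes of peptide trimming and folding, 6 had a loop in both Ishikawa and LNCaP and 5 in T-47D. The trimming peptidase ERAP1 had 4.9, 3.13 and 0.554 read pairs per 100000 in Ishikawa, T-47D and LNCaP, and ERAP2 had 1.06, 20.8 and 11.6. TAPBPL, a tapasin-related peptide editor, had 17.8 per 100000 in Ishikawa, none in T-47D and 10.5 in LNCaP, so both tapasin genes were at 0 in T-47D. The chaperone gene CALR had 36.7 per 100000 in LNCaP, 15.1 in T-47D and 5.38 in Ishikawa.

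Of the 5 regulators of class I transcription examined, 5 had a loop in LNCaP, 4 in T-47D and 3 in Ishikawa. IRF1, an activator in the interferon response, was highest in T-47D with 125 read pairs (35.6 per 100000), against 61 in Ishikawa (5.86) and 19 in LNCaP (1.05). RFX5, a subunit of the factor that NLRC5 works with, was at 0 in Ishikawa and had 10.5 per 100000 in T-47D and 2.82 in LNCaP.

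Of the 8 genes of MHC class II and its regulator, 2 had a loop in LNCaP, 3 in T-47D and 8 in Ishikawa, and no test of the difference was made. HLA-DPA1 and HLA-DPB1 shared an Ishikawa anchor. Ishikawa values ran from 7 to 63 read pairs, and HLA-DRA had 0.865 per 100000. The 3 in T-47D were CIITA (7.69 per 100000), CD74 (10.2) and HLA-DMA (58.6), and the 2 in LNCaP were CIITA (2.94) and HLA-DMA (49.5). The HLA-DMA anchor also held the start of BRD2 in each list, and that of CIITA the start of DEXI.

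**Figure D5:**
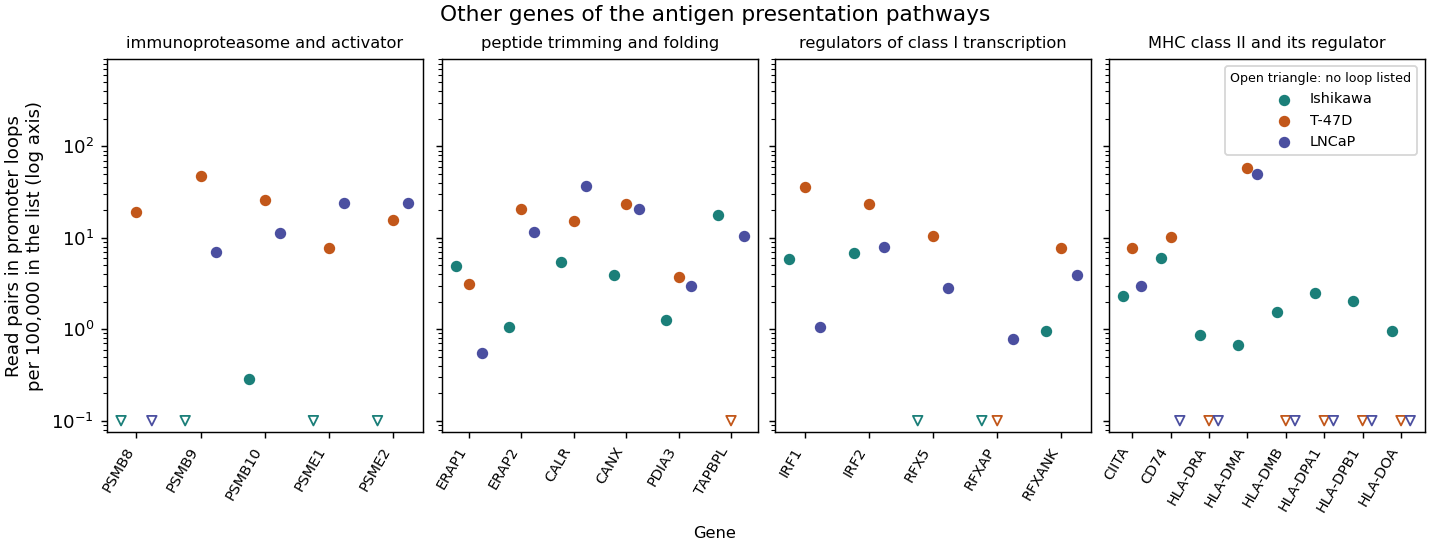
Read pairs in promoter loops per 100,000 in the same list (log axis) for the genes of the 4 pathway lists, 1 point for each gene and cell line, with open triangles at the bottom for genes with no loop listed. In Ishikawa 4 of 5 immunoproteasome and activator genes have no loop over their 500 bp start windows, while 8 of 8 class II genes have one.

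The reads of class I genes can be hard to place because the genes resemble each other. In the GRCh37 sequence, 92.7% to 98.4% of the 50-base words in the 5 kb around the start sites of HLA-B, HLA-C, HLA-E, HLA-F, TAP2 and NLRC5 occurred once in the genome, as did 98.8% for B2M, 99.2% for TAPBP and 100% for TAP1. For 75-base words, the read length of T-47D and LNCaP, the lowest share was 97.7%, at HLA-F, and HLA-B had 99.7%. The 50-base words are those of the Ishikawa reads. These shares describe the reference only, and the alleles of the cell lines were not examined.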

How the data were processed

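H3K27ac HiChIP loops were analysed from 7 samples of 3 human cell lines. The authors mapped reads to hg19 (GRCh37) with HiC-Pro, called loops with hichipper, removed loops under 3 read pairs or failing their false discovery rate limit, and deposited 1 list of raw read-pair counts per line. The Ishikawa list held 4 unlabelled parts in sequence, which were summed. Rows joining an anchor to itself were left out of loops. Start sites came from GENCODE release 44 lifted to GRCh37, without mitochondrial genes, and an overlap of 1 bp counted. Both edges of 100% of the anchors on the chromosomes of the 9 genes lay within 4 bp of a GATC site of GRCh37, as did 1.43% of drawn positions. Groups were the cell lines. Poisson and ratio intervals were exact (conditional binomial) and intervals of shares were Wilson's. With 1 list per line no test between lines was made. Every gene on the list was named, with its strongest loops, genes sharing its anchor and 4 pathway lists. Some genes of the marker and pathway lists and some loop partners are not reported here. Members and lists were chosen with earlier results of these data known. Linking and intervals were tested on simulated data. Alternatives changed the read-pair minimum, depth, promoter window, start sites, span, overlap and Ishikawa parts. Python 3.11.15, pandas 2.3.3, numpy 2.4.6 and scipy 1.17.1 were used.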

Additional observations from a re-analysis of the deposited data

Results flagged for a closer look

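Read pairs that joined a promoter anchor to itself were not used in the comparisons, and for 6 of the promoters they exceeded the 3 read pairs set for a count of 0. In T-47D they numbered 51 at TAP1, 19 at HLA-B, 16 at HLA-E, 11 at B2M and 9 at HLA-C. In Ishikawa they numbered 33 at NLRC5. The LNCaP list held 0 rows of this kind for any gene, so the lists cannot be compared on them.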

How the results depend on the processing

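No paired analysis was possible because each line had 1 joined list and no column carried a replicate number. A minimum of 5 read pairs left a loop at 1 of the 9 genes in Ishikawa (NLRC5), with 13 loops, and 26 loops in T-47D. A minimum of 10 left 1 gene and 6 loops in Ishikawa, 9 loops in T-47D, and 4 genes and 18 loops in LNCaP, and the summed ratio was 1.92 for T-47D over LNCaP and 0.28 for Ishikawa over T-47D. Thinning every list to the read pairs of T-47D left 1 gene and 10 loops in Ishikawa and 15 loops in LNCaP. With 1 start site per gene Ishikawa had 1 gene (TAPBP) and 4 loops, and the summed ratios were 1.82 for T-47D over LNCaP, 0.0318 for Ishikawa over LNCaP and 0.0175 for Ishikawa over T-47D. NLRC5 then turned round, at 0.744 for Ishikawa over LNCaP with 3 read pairs set for Ishikawa, because its Ishikawa loops lay at inner start sites. Spans of 20 kb to 1 Mb gave 3.01 for T-47D over LNCaP and 0.175 for Ishikawa over T-47D. Ishikawa loops found in 2 or more parts left 1 gene (NLRC5) and 10 loops. The wide window of 2 kb, anchors holding the whole window, spans of 5 kb to 2 Mb and leaving out any part of the Ishikawa list moved none of these counts by over 1.5 times and no summed ratio beyond its interval. Of 243 values for single genes, 219 stayed within the interval of the reported ratio, 23 left it without turning round, and that of NLRC5 turned round. The 2-fold call changed in 13 of the 243. It was lost in 9, HLA-E (6) and TAP2 (2) for LNCaP over Ishikawa and NLRC5 for Ishikawa over LNCaP, and gained in 4, all B2M for T-47D over LNCaP. These calls were read from the ratio alone, without asking for a loop in the higher list. NLRC5, at 0 in T-47D, thus stood at 2.2-fold for T-47D over LNCaP, which was not called above. The 243 leave out alternatives with a gene at or under 3 read pairs in both lists, where no ratio was formed. Calls also gone in this way were HLA-B and, for Ishikawa over T-47D, NLRC5 with 1 start site per gene. At a minimum of 10 read pairs they were HLA-E in every comparison and TAP2 for LNCaP over Ishikawa. In the thinned lists they were HLA-E and TAP2 for LNCaP over Ishikawa. Of the 23 that left the interval, 11 were in the thinned lists, such as HLA-B at 22.2 for T-47D over LNCaP. The direction of the 3 summed ratios was kept in every alternative run. Loops under 3 read pairs are unseen in every list, and the spread between libraries was not available. In Ishikawa this minimum applied within each of the 4 parts before summing, and no alternative removed that difference from the other lists.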
